A study of Rattus norvegicus with 30 samples.

Results

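The genes described here act on broken or mispaired DNA: sensors and checkpoint kinases, homologous recombination, the Fanconi anaemia pathway with Rad18, end joining and mismatch repair. The list held 42 symbols for 41 genes, since Trp53bp1 is the mouse spelling of Tp53bp1. A gene was measured where a probe set carried its symbol and no other, and by the probe set with the highest mean over all 30 arrays. This gave 36 genes of 14217 in the whole series. Atm, Fancg, Fanci, Rad9a and Claspn had no such probe set. By role, 12 of the 36 were sensors and signalling genes, 12 recombination genes, 5 end joining genes and 3 mismatch repair genes. The other 4 were Rad18 and the Fanconi genes Fanca, Fancd2 and Fancl.

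The groups were jejunum, colon and stomach of female DA rats aged 10 weeks, killed 1, 6, 24 or 72 h after a single intraperitoneal injection of irinotecan (200 mg/kg) given under light halothane, against rats killed at 0 h that received no drug. The sources used here do not say whether the 0 h rats were anaesthetised or sham-injected. Each array carried RNA pooled from 3 rats, with 2 pools for each of the 15 tissue and time groups. All tissues at a given time were taken from 1 set of 6 rats. The p-values therefore measure the spread between pools, and with 2 arrays a group their number limits the precision. Values are log2 signals, so a difference of 1 is a doubling. Whole flushed gut was sampled, so fewer cells of a type and less RNA per cell cannot be told apart.

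Irinotecan is converted in the body to a poison of topoisomerase I, which leaves the enzyme trapped on a nicked DNA strand, and a replication fork that runs into such a complex can turn it into a double-strand break. Broken ends are recognised by the Mre11, Rad50 and Nbn complex, and single-stranded DNA by Atr with Atrip, which activate the kinases Chek2 and Chek1 that hold the cell cycle. In dividing cells, such as those of the intestinal crypt, ends can be cut back and repaired by recombination with the sister chromatid, while Ku-dependent end joining works throughout the cell cycle. Msh6 and Msh3 take part in the recognition of mismatches, and many of these genes are transcribed in the S phase of the cell cycle.

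Promoters of 30 of the 36 genes were found in the RefSeq table of the GRCr8 build, which holds 250 bases before to 50 after each gene start. Blm, Chek2, Mdc1, Nbn, Prkdc and Xrcc2 had no entry there. The stretches from 100 bases before to 10 after the start are shown for Rad18, Msh6 and Exo1, 3 of the genes with the smallest adjusted p in the jejunum at 72 h, and for Chek1, which passed the test in both intestinal tissues. Capitals mark matches to TTTCCCGCC (E2F-type) or to the CCAAT box, read on either strand. They lie at chr4:147376860-147376969 (minus strand) for Rad18, chr6:12333496-12333605 (minus) for Msh6, chr13:90341918-90342027 (plus) for Exo1 and chr8:44629834-44629943 (minus) for Chek1.
Rad18: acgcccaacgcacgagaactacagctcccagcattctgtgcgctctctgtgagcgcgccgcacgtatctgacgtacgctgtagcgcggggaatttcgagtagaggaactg
Msh6: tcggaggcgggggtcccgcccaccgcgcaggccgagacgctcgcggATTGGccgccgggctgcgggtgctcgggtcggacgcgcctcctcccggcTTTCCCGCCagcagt
Exo1: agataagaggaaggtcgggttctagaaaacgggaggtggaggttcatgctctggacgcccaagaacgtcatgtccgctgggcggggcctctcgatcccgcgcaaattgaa
Chek1: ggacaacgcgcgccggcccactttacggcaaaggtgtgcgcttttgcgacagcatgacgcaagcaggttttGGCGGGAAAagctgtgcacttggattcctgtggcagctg
The 9 letters TTTCCCGCC, chosen after these promoters were read, were found in Chek1 and Msh6, 2 of the 30 promoters (6.7%), and in 0.4% of all 27457. They overlap with the 8-letter words TTTCCCGC and TTCCCGCC. Any of TTTCCCGC, TTCCCGCC or TTTGGCGC stood in 8 of the 30 (26.7%), namely Bard1, Chek1, Fancd2, Fancl, Msh6, Rad50, Rad51ap1 and Topbp1, and in 3.1% of all promoters. Of the 10 promoters of genes that passed the test in the jejunum at 72 h, 2 held one of these words, and of the other 20 promoters 6 did. CCAAT stood in 13 of the 30 (43.3%) and in 37.7% of all promoters, and TTTGAA in 4 (13.3%) and 18.1%. A match is a description of the letters and was not tested for binding.

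All 30 arrays had medians between 6.965 and 7.055, and the 2 arrays of a group correlated at 0.9469 to 0.9959 over probe sets. The defining gland markers of the stomach, the enterocyte markers of the jejunum and the colonocyte markers of the colon had their highest list medians in the tissue of that label. By the GAPDH gap, pancreatic markers or Pgc, 6 arrays stood apart. The GAPDH signal was over 0.5 higher at the 3' than at the 5' end on array 1 of the stomach at 24 h (0.557) and of the jejunum at 24 h (0.816). Pancreatic acinar markers had medians of 13.48 on stomach 72 h array 1, 12.26 on colon 72 h array 2 and 9.29 on colon 6 h array 1, against at most 7.38 at 0 h in the stomach and 6.81 in the colon. Pgc, a stomach enzyme, read 13.67 on colon 24 h array 1, against 8.45 and 6.60 at 0 h. No jejunal array of 0 or 72 h was among them. Other markers also varied and were not part of this rule. Squamous markers had medians of 7.26 and 9.87 in the stomach at 0 h and 12.02 on stomach 72 h array 2. Enterocyte markers had medians of 10.79 and 9.435 in the stomach at 72 h, against 7.485 and 7.46 at 0 h. On colon 24 h array 2 the enterocyte median was 10.80, against 8.44 and 9.43 at 0 h.

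In the jejunum at 72 h the repair genes stood higher than in undosed rats, led by Rad18 at 2.53-fold, Msh6 at 1.90-fold, Nbn at 1.73-fold and Exo1 at 1.60-fold. Of the 36 genes 14 rose and 0 fell at an adjusted p below 0.05 (limma, Benjamini-Hochberg over 31042 probe sets). Over all probe sets, 11.9% were called higher and 12% lower in this comparison. Both 72 h arrays lay above both 0 h arrays for 26 of the 36 genes and below them for 5, against 29.7% above and 43.8% below over all probe sets. The median log2 change was 0.24 for the 36 genes and -0.07 for all probe sets. By role, 6 of 12 sensors and signalling genes rose, 5 of 12 recombination genes, 1 of 5 end joining genes and 1 of 3 mismatch genes. Of the 4 genes in the class of Fanconi genes with Rad18, only Rad18 rose.

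**Figure D1:**
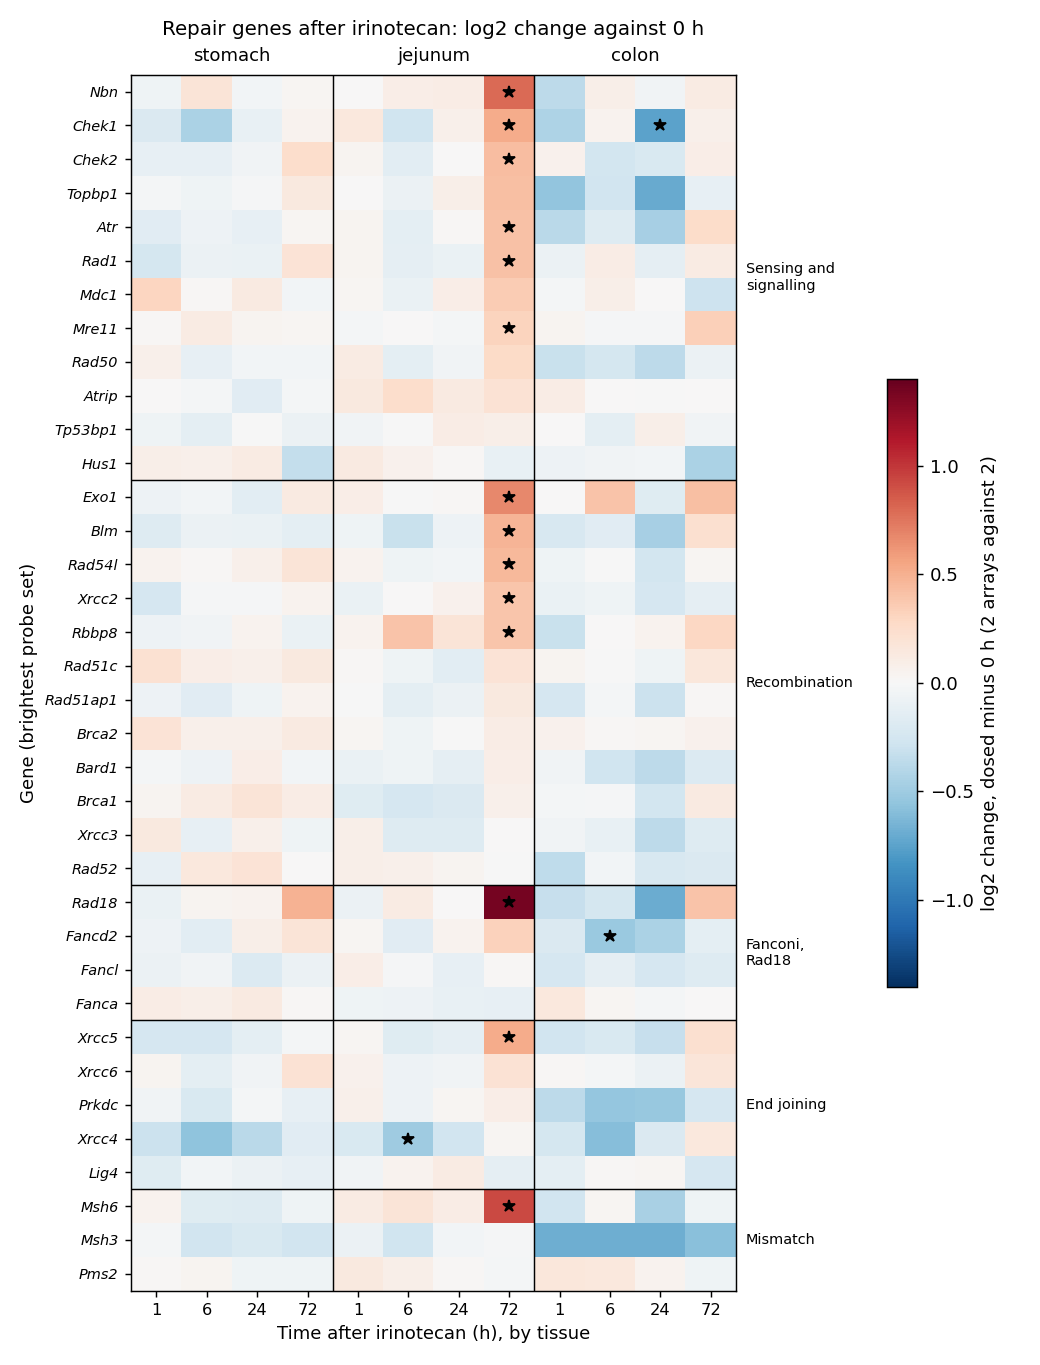
Log2 change of each of the 36 genes against 0 h, by tissue and hours after irinotecan (columns), with genes grouped by role (rows). Colour gives the log2 change of 2 dosed arrays against 2 at 0 h, and a star marks an adjusted p below 0.05. Of the 17 stars, 14 are in the jejunum at 72 h.

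Rad18, the ubiquitin ligase that marks PCNA so that damaged templates can be bypassed, had the largest change of the list. Its probe set (1392449_at) read 6.63 and 6.47 in the jejunum at 0 h, 6.59 and 6.33 at 1 h, 6.58 and 6.74 at 6 h, 6.63 and 6.47 at 24 h and 7.79 and 7.99 at 72 h. Both 72 h arrays stood above all 8 earlier jejunal arrays, and the earlier times overlapped one another. The log2 change against 0 h was 1.34 ± 0.12 (standard error, limma adjusted p = 0.000618). In the colon Rad18 read 6.78 and 6.98 at 0 h, 6.63 and 6.50 at 1 h, 6.46 and 6.82 at 6 h, 6.04 and 6.34 at 24 h and 7.28 and 7.28 at 72 h. The colon thus had its lowest values at 24 h and its highest at 72 h, with no overlap between those groups. In the stomach it read 7.30 and 7.03 at 72 h, against 6.64 and 6.71 at 0 h. The 72 h arrays lay above the 0 h arrays there too, but the change of 0.49 did not pass the test (adjusted p = 0.656). At 72 h stomach array 1 and colon array 2 are arrays with pancreatic markers.

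Msh6, which takes part in recognising base mismatches and small loops, came second in the jejunum. It read 7.60 and 7.65 at 0 h, 7.62 and 7.86 at 1 h, 7.83 and 7.79 at 6 h, 7.78 and 7.68 at 24 h and 8.64 and 8.46 at 72 h. The change at 72 h was 0.92 ± 0.10 (adjusted p = 0.00106), and no earlier array reached the 72 h values. Undosed jejunum had less Msh6 signal than the other tissues, whose 0 h arrays read 8.47 and 8.46 in the colon and 8.43 and 8.17 in the stomach. The jejunal arrays at 72 h overlapped with those of undosed colon and lay above those of undosed stomach. At 72 h the Msh6 changes of -0.06 in the colon and -0.06 in the stomach did not pass the test. The other mismatch genes gave a change of -0.02 for Msh3, which takes part in recognising larger loops, and -0.03 for Pms2, which nicks the strand to be replaced.

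Among the sensors, Nbn, the subunit that brings Mre11 and Rad50 to the nucleus and to broken ends, read 8.67 and 8.57 in the jejunum at 72 h, against 8.02 and 7.65 at 0 h. Its 6 jejunal arrays at 1, 6 and 24 h lay between 7.75 and 7.95. The change at 72 h was 0.79 ± 0.12 (adjusted p = 0.00365). Mre11, the nuclease of the complex, changed by 0.31 ± 0.10 (adjusted p = 0.0461). Rad50, its ATPase, gave 0.27 (adjusted p = 0.0919) on its brightest probe set and 0.47 (adjusted p = 0.00709) on another, 1387427_at.

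Among the kinases, Chek1, the checkpoint kinase downstream of Atr, read 8.22 and 8.08 at 72 h, against 7.81 and 7.46 at 0 h, a change of 0.52 ± 0.12 (adjusted p = 0.0195). Chek2, its counterpart downstream of Atm, changed by 0.43 ± 0.12 (adjusted p = 0.0315). Atr changed by 0.42 ± 0.12 (adjusted p = 0.0330). Rad1, part of the clamp with Rad9 and Hus1 that is loaded at damage, changed by 0.41 ± 0.10 (adjusted p = 0.0218). For these 4 genes both 72 h arrays lay above both 0 h arrays. The remaining sensors did not pass: Topbp1, which activates Atr, gave 0.42, the chromatin adaptor Mdc1 0.36, Atrip 0.20, Tp53bp1, which shields ends from resection, 0.08 and Hus1 -0.11.

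Exo1, a nuclease that resects ends and removes the mismatched strand, led the recombination genes. It read 7.41 and 7.36 in the jejunum at 72 h, against 6.74 and 6.68 at 0 h, and its other jejunal arrays lay between 6.57 and 6.88. The change was 0.67 ± 0.11 (adjusted p = 0.00391). Rad54l, a motor protein that acts in strand invasion, read 7.05 and 6.99 at 72 h, against 6.57 and 6.56 at 0 h, a change of 0.45 ± 0.08 (adjusted p = 0.00796). The 72 h arrays of both genes stood above all 8 earlier arrays. Blm, a helicase that dissolves recombination intermediates, read 8.08 and 7.76 at 72 h, against 7.54 and 7.36 at 0 h, a change of 0.47 ± 0.13 (adjusted p = 0.0346). Xrcc2, a recombination protein, changed by 0.39 ± 0.09 (adjusted p = 0.0179). Rbbp8, which starts resection with Mre11, changed by 0.38 ± 0.09 (adjusted p = 0.0211).

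The remaining recombination genes did not pass in the jejunum at 72 h. Brca1 gave 0.07 and its ubiquitin ligase partner Bard1 0.09. Brca2, a mediator of recombination, gave 0.10, Rad51ap1, which acts in strand invasion, 0.13, and the recombination proteins Rad51c and Xrcc3 0.19 and 0.01. Rad52, which anneals single strands, gave -0.01. Of the Fanconi genes, Fancd2, the protein that is ubiquitinated at crosslinks, gave 0.32, Fancl, the ligase that does so, 0.02 and Fanca, of the core complex, -0.11.

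In end joining, Xrcc5, the Ku80 subunit that binds ends, read 8.07 and 8.04 at 72 h, against 7.57 and 7.50 at 0 h, a change of 0.52 ± 0.11 (adjusted p = 0.0108). Its other probe set, 1378834_at, gave -0.02, so the probe sets of Xrcc5 disagree. The other 4 did not pass: Xrcc6, the Ku70 subunit, gave 0.20, Prkdc, the kinase that Ku recruits, 0.10, Xrcc4, the scaffold of the ligase, 0.02 and Lig4, the ligase itself, -0.13. A second Lig4 probe set (1383561_at) was higher at 6 h (0.60, adjusted p = 0.0156) and at 72 h (0.37, adjusted p = 0.0257), where the brightest gave 0.05 and -0.13. A second Topbp1 probe set (1381958_at) was lower at 72 h (-1.10, adjusted p = 0.0420), opposite to the brightest.

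**Figure D2:**
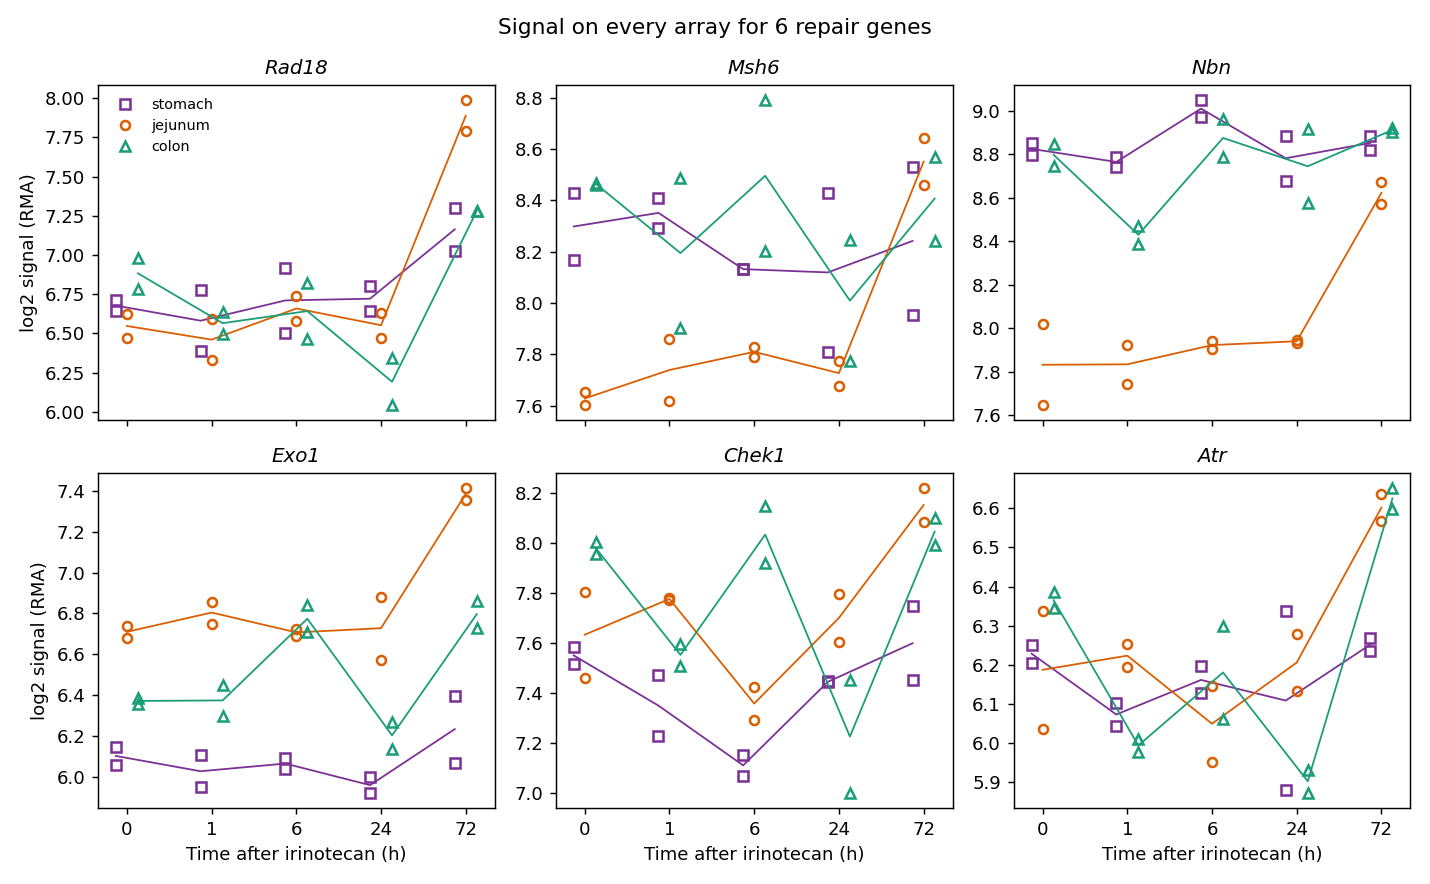
Log2 signal of single arrays (points, 2 a group) against hours after irinotecan (times evenly spaced on the axis) in stomach, jejunum and colon, for Rad18, Msh6, Nbn, Exo1, Chek1 and Atr, with a line through the group means. Rad18 in the jejunum is 7.79 and 7.99 at 72 h and at most 6.74 before, while in the colon it dips to 6.04 and 6.34 at 24 h.

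The jejunal count at 72 h depended on single arrays. It was 8 without 0 h array 1, 4 without 0 h array 2, 4 without 72 h array 1 and 7 without 72 h array 2. Rad18, Msh6, Nbn and Exo1 were called in each of these 4 fits, and Mre11, Chek2, Xrcc2 and Rbbp8 in none. Each of these fits leaves a single array in a group, and fewer of all probe sets were called in each of them as well. Cell cycle genes moved with the repair genes: 22 of 27 mitosis genes rose (median change 0.63) and 23 of 27 DNA replication genes (median 0.63), among them Ccna2, a cyclin of S and G2 phase (1.21, adjusted p = 0.000912), and Mcm5, of the replicative helicase (0.78, adjusted p = 0.00117). Macrophage markers also moved, with 4 of 6 higher and list medians of 7.83 and 7.73 at 72 h, against 7.02 and 6.93 at 0 h. Of the smooth muscle markers 2 of 6 were higher (10.998 and 11.24, against 10.11 and 10.26), of the crypt base markers 0 of 4 (7.81 and 7.63, against 7.52 and 7.59) and of the enterocyte markers 0 of 4 (13.66 and 13.50, against 13.62 and 13.65). Colonocyte markers were lower for 3 of 4 (7.63 and 7.83, against 8.48 and 8.45), B cell markers for 1 of 5 (6.41 and 6.44, against 6.65 and 6.70) and T cell markers for 1 of 8 (6.885 and 6.80, against 7.002 and 6.995). Their part in the repair genes' change was not tested.

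Against the jejunum at 24 h, 12 of the 36 genes rose and 0 fell by 72 h, against 8.77% of all probe sets called higher and 4.15% lower. They were Rad18 (1.34), Msh6 (0.82), Nbn (0.68), Exo1 (0.66), Xrcc5 (0.64), Blm (0.54), Rad1 (0.50), Rad54l (0.49), Chek1 (0.45), Chek2 (0.42), Rad51c (0.33) and Xrcc2 (0.33). The comparison shares its 72 h arrays with the one against 0 h. Xrcc5 read 8.07 and 8.04 at 72 h, against 7.26 and 7.57 at 24 h, with no overlap. Jejunum 24 h array 1 is the array with the GAPDH gap of 0.816. The count was 13 without it, of which 8 were among the 12 (Blm, Chek2, Rad51c and Xrcc2 were lost), 16 without 24 h array 2, 2 (Msh6 and Rad18) without 72 h array 1 and 8 without 72 h array 2. Mitosis genes were higher for 26 of 27, replication genes for 24 of 27 and macrophage markers for 5 of 6, with macrophage medians of 7.83 and 7.73 at 72 h, against 6.83 and 7.22 at 24 h, and colonocyte markers were lower for 2 of 4. Their part in the result was not tested.

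Earlier in the jejunum few of these genes moved. At 1 h 0 of 36 were called, against 0.0354% of all probe sets called, and 0 had an unadjusted p below 0.05 (limma). At 24 h 0 were called, against 0.409% of all probe sets called, and 1 had an unadjusted p below 0.05 (limma). At 24 h Brca1 and Topbp1 were called without array 2. That fit rests on array 1, the one with the GAPDH gap of 0.816, and is not read as a result. At 6 h Xrcc4 fell, the 1 call among 36 genes, against 1.19% of all probe sets called lower and 2.3% higher. It read 6.79 and 6.62 at 6 h, against 7.19 and 7.20 at 0 h, a change of -0.49 ± 0.10 (adjusted p = 0.0389). Both 6 h arrays were the lowest of the jejunum, and by 72 h Xrcc4 was back at 7.22 and 7.23. Xrcc4 gave lower values at 6 h in the other tissues too, where it did not pass: 6.11 and 6.66 in the colon at 6 h, against 7.01 and 6.95 at 0 h (-0.60, adjusted p = 0.139), and 6.44 and 6.76 in the stomach, against 7.16 and 7.17 (-0.57, adjusted p = 0.364). In none of the 3 tissues did its 6 h and 0 h arrays overlap. The call in the jejunum was lost without any 1 of its 4 arrays, with a count of 0 each time, and the other Xrcc4 probe set gave -0.18 in the jejunum, 0.07 in the colon and -0.07 in the stomach. The 6.11 is from the colon array with pancreatic markers. At this time 22 of 27 mitosis genes were lower in the jejunum and 6 of 15 p53 targets were higher, Ccng1 by 1.57 and Cdkn1a, the p21 inhibitor of cyclin kinases, by 0.91.

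In the colon at 24 h Chek1 fell, the 1 call among 36 genes, and most of the others had lower means that did not pass. Both 24 h arrays lay below both 0 h arrays for 20 of the 36 genes and above them for 2, with 14 overlapping, against 21.4% below and 28.2% above over all probe sets. The median log2 change was -0.23, against 0.03 for all probe sets. Over all probe sets 0.854% were called lower and 0.29% higher. An unadjusted p below 0.05 (limma) was reached by 13 of the 36, with no share of all probe sets at that p beside it. Chek1 read 7.955 and 8.0039 in the colon at 0 h, 7.60 and 7.51 at 1 h, 7.92 and 8.15 at 6 h, 7.00 and 7.45 at 24 h and 8.10 and 7.99 at 72 h. It was low at 1 h and lowest at 24 h, and at 6 and 72 h it overlapped with the 0 h values. The change at 24 h was -0.75 ± 0.15 (adjusted p = 0.0401). Next came Rad18 at -0.69 (adjusted p = 0.0583), Topbp1 at -0.70 (adjusted p = 0.0663), Fancd2 at -0.45 (adjusted p = 0.0705), Atr at -0.46 (adjusted p = 0.0749) and Prkdc at -0.53 (adjusted p = 0.0792), none of which passed.

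Array 1 of the colon at 24 h is the array with a high Pgc signal, which was 6.96 on array 2. Without array 1 the count was 0 and the Chek1 change -0.53 (adjusted p = 0.126). Without array 2 it was 3 (Chek1, Rad18 and Topbp1), and without either 0 h array it was 0. At 24 h 25 of 27 mitosis genes were lower too (median -1.30), with Ccna2 at -1.59, and so were 2 of 27 replication genes (median -0.47). The mitosis genes were already low in the colon at 6 h, with list medians of 7.243 and 7.474, against 8.413 and 8.588 at 0 h. Chek1 overlapped with its 0 h values at 6 h, where array 1 is the one with pancreatic markers. A link between Chek1 and the mitosis genes was not tested. Gland markers of the stomach were higher for 2 of 7, with medians of 9.41 and 6.65 at 24 h, against 6.92 and 6.34 at 0 h, and smooth muscle markers for 2 of 6, with medians of 12.75 and 12.60, against 12.18 and 12.08. Their part in the result was not tested.

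At 6 h in the colon Fancd2 fell, the 1 call among 36, against 0.986% of all probe sets called lower and 0.2% higher. Fancd2 read 7.81 and 7.67 at 0 h, 7.50 and 7.58 at 1 h, 7.27 and 7.18 at 6 h, 7.28 and 7.31 at 24 h and 7.63 and 7.58 at 72 h. All 8 dosed arrays lay below the 0 h arrays, most at 6 and 24 h. The change at 6 h was -0.52 ± 0.10 (adjusted p = 0.0384). The call was lost without any 1 of its 4 arrays. Without colon 6 h array 2 the calls were Xrcc4 and Prkdc, and without array 1 of 6 h, the one with pancreatic markers, or either 0 h array there were 0. At 1 h 0 genes were called (0% of all probe sets). An unadjusted p below 0.05 (limma) was reached by 8 of the 36, Msh3 (-0.69) and Topbp1 (-0.55) having the smallest. The share of all probe sets at that p is not given.

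Msh3 read 7.60 and 7.41 in the colon at 0 h, 6.60 and 7.04 at 1 h, 6.67 and 6.98 at 6 h, 6.85 and 6.79 at 24 h and 6.74 and 7.11 at 72 h. All 8 dosed colon arrays lay below both 0 h arrays. None of the 4 changes, from -0.58 at 72 h to -0.69 at 1 h, passed the test, the adjusted p running from 0.100 at 24 h to 0.286 at 1 h, and the 4 comparisons share the 0 h arrays. Msh3 in the jejunum gave -0.02 at 72 h and in the stomach -0.26.

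In the colon at 72 h 0 of 36 genes were called against 0 h, against 1.32% of all probe sets called. At an unadjusted p below 0.05 (limma) there were 7 of the 36. The share of all probe sets at that p is not given. The genes went both ways, with both 72 h arrays above both 0 h arrays for 12, below them for 12 and overlapping for 12, against 22.1% above and 26.5% below over all probe sets, and a median change of 0.01. Against 24 h 6 of the 36 genes rose by 72 h and 1 fell, against 4.4% of all probe sets called higher and 2.33% lower, and the median change was 0.25 for the 36 and -0.05 for all probe sets. Both 72 h arrays lay above both 24 h arrays for 20 of the 36 genes and below them for 5, against 22.1% and 32.5% of all probe sets. Rad18 was 2.13-fold higher at 72 h than at 24 h, a change of 1.09 ± 0.15 (adjusted p = 0.00525).

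Atr, the kinase that answers to single-stranded DNA, read 6.38 and 6.35 in the colon at 0 h, 5.98 and 6.01 at 1 h, 6.06 and 6.30 at 6 h, 5.87 and 5.93 at 24 h and 6.65 and 6.60 at 72 h. The 6 arrays of 1 to 24 h lay below 0 h and those of 72 h above it. Between 72 and 24 h Atr changed by 0.72 ± 0.11 (adjusted p = 0.00771). Chek1 changed by 0.82 ± 0.15 (adjusted p = 0.0139). Blm read 7.40 and 7.48 at 72 h, against 6.64 and 6.87 at 24 h, a change of 0.69 ± 0.13 (adjusted p = 0.0147). Exo1 read 6.86 and 6.73 at 72 h, against 6.14 and 6.27 at 24 h, a change of 0.59 ± 0.11 (adjusted p = 0.0151). Topbp1 changed by 0.59 ± 0.15 (adjusted p = 0.0495). For these genes both 72 h arrays lay above both 24 h arrays. The other Topbp1 probe set gave 0.04 (adjusted p = 0.907). Hus1, of the damage clamp, fell by 0.40 (adjusted p = 0.0481), while its other probe set gave 0.03.

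The colon count of 7 for 72 h against 24 h was 2 (Atr and Rad18) without 24 h array 1, 8 without 24 h array 2, 2 (Atr and Rad18) without 72 h array 1 and 5 without 72 h array 2. Without both arrays that stood apart it was 3, Atr, Chek1 and Rad18. Mitosis genes moved with these genes, 26 of 27 being higher at 72 h than at 24 h (median 1.23), and so did 17 of 27 replication genes (median 0.61). Macrophage markers were higher for 2 of 6, with medians of 8.27 and 8.53 at 72 h, against 6.89 and 7.93 at 24 h. Smooth muscle markers were lower for 3 of 6 (12.14 and 11.98, against 12.75 and 12.60) and stomach gland markers for 2 of 7. On 72 h array 2 the B cell and T cell medians were 7.37 and 7.38, against 6.24 and 6.52 on 72 h array 1, and that array has the acinar markers. Their part in the result was not tested.

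**Figure D3:**
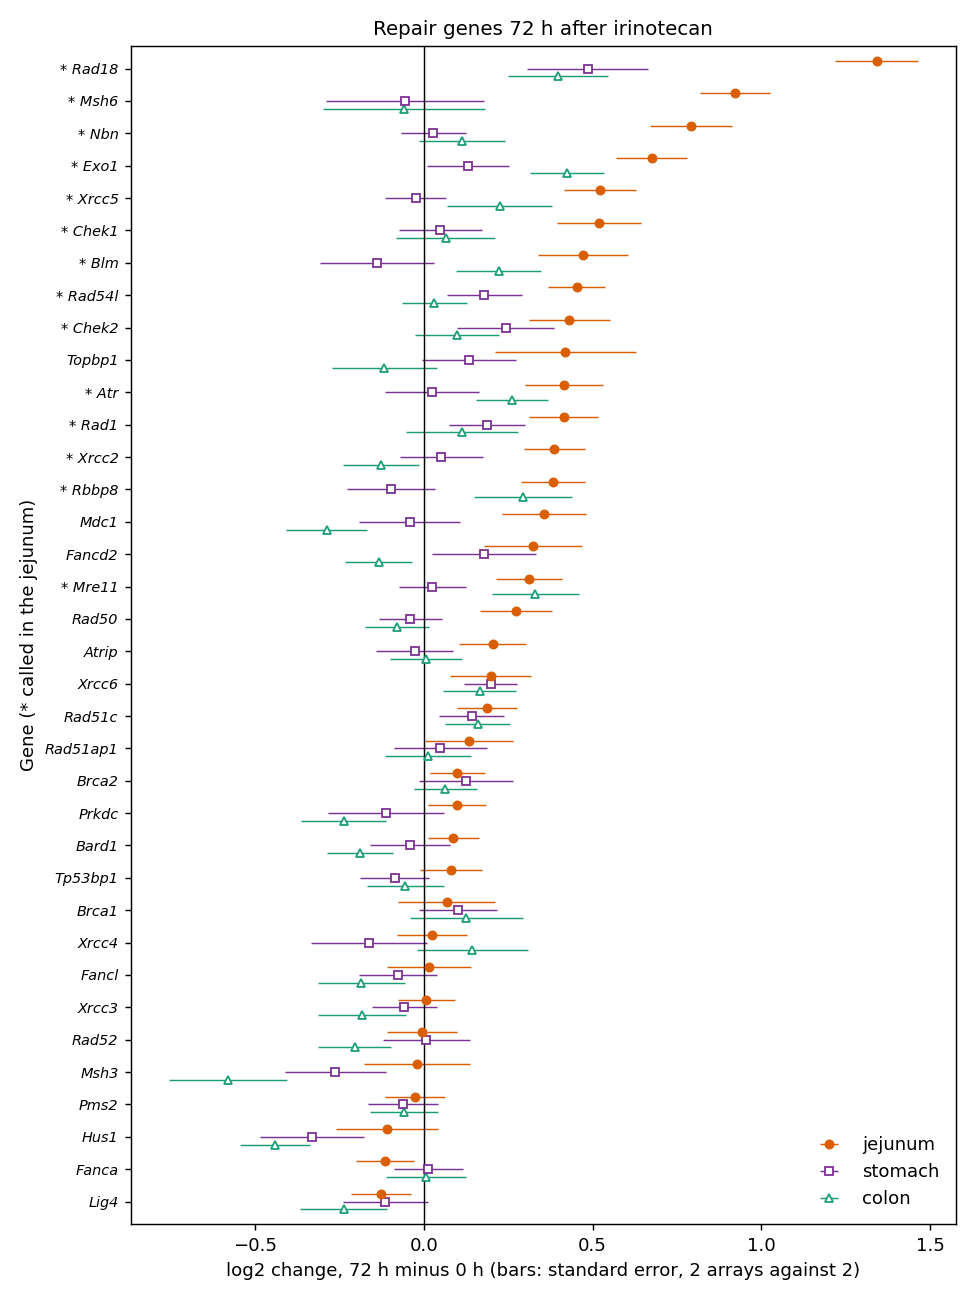
Log2 change at 72 h against 0 h of each gene (points) with its standard error (bars), by tissue, for the 36 genes. Jejunal points pass the test for 14 genes and reach 1.34 for Rad18, and no gene passes in colon or stomach.

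In the stomach 0 of 36 genes were called at any time, against 0.0161% of all probe sets at 1 h, 0.0322% at 6 h, 0.0161% at 24 h and 0.00644% at 72 h. At an unadjusted p below 0.05 (limma) there were 1, 3, 0 and 2 of the 36 at these times. The median changes were -0.06, -0.06, -0.03 and 0.01. Chek1 had the smallest p at 6 h, with 7.07 and 7.15, against 7.58 and 7.52 at 0 h (-0.44, adjusted p = 0.324). No mitosis gene was called at 6 h either. The median change of the 27 was -0.56, and 20 had an unadjusted p below 0.05 (limma). The share of all probe sets at that p is not given for any of these stomach counts.

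The tissues' changes at 72 h were set against each other with an F test of the tissue by time interaction, which treats tissues as independent although they share rats. It called 2 of the 36 genes, Nbn and Rad18, against 2.28% of all probe sets called. The count of 12 of the 36 at an unadjusted p below 0.05 has no share of all probe sets beside it. Nbn changed by 0.79 in the jejunum, 0.11 in the colon and 0.03 in the stomach (adjusted p = 0.0283). Rad18 changed by 1.34 in the jejunum, 0.40 in the colon and 0.49 in the stomach (adjusted p = 0.0457). The count was 4 without stomach 72 h array 1 and 2 without stomach 72 h array 2. It was 1 (Nbn) without jejunum 0 h array 1, colon 0 h array 2 or either colon 72 h array, and 0 without either stomach 0 h array, jejunum 0 h array 2, either jejunum 72 h array or colon 0 h array 1. Without the arrays that stood apart it was 10 (with Msh6, Exo1, Rad54l, Xrcc2, Xrcc5, Blm, Mdc1 and Topbp1), and after quantile normalization 0. At 1, 6 and 24 h 0 of 36 were called, against 0.00322%, 0.251% and 0.229% of all probe sets called. At 24 h 11 of the 36 had an unadjusted p below 0.05 (limma), again without the share of all probe sets. The lower colon values at 24 h are thus not shown to differ from the other tissues. Leaving out colon 24 h array 2 called Chek1 and leaving out stomach 24 h array 2 called Prkdc. In both fits the array kept in that group was array 1, which stood apart.

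Further repair genes, a list of 42 others of the same pathways, moved at the same times. In the jejunum at 72 h 13 of 42 rose and 0 fell (median 0.11), against 11.9% of all probe sets higher, led by Rpa2, of the complex that coats single-stranded DNA (0.87 ± 0.08, adjusted p = 0.000584), Smc6, of a complex that resolves joined chromatids (0.56), Parp1, which senses strand breaks (0.55), and Rpa1 (1.03). At 6 h in the jejunum, where 2.3% of all probe sets were higher and 1.19% lower, Ercc4, a nuclease of excision repair, rose by 0.34 and Rad51b, a recombination protein, H2ax, the histone that is phosphorylated around breaks, and Parp1 fell, by 0.61, 0.71 and 0.39 on the log2 scale. In the colon H2ax was the 1 of 42 that changed at 6 h (-0.63, adjusted p = 0.0237) and at 24 h (-0.91, adjusted p = 0.00423), against 0.986% and 0.854% of all probe sets lower. Between 72 and 24 h 5 of 42 rose in the colon, against 4.4% of all probe sets, H2ax by 0.86, Ube2t, the conjugating enzyme of the Fanconi ligase, by 0.97, Rpa2 by 0.72 and Fancb by 0.57 among them. In the jejunum 11 of 42 did, against 8.77% of all probe sets, among them Rpa2 (0.82), Ube2t (0.70), Smc6 (0.46) and Parp1 (0.48). In the stomach 0 of 42 were called at any time, with 4, 6, 2 and 2 at an unadjusted p below 0.05 (limma).

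**Figure D4:**
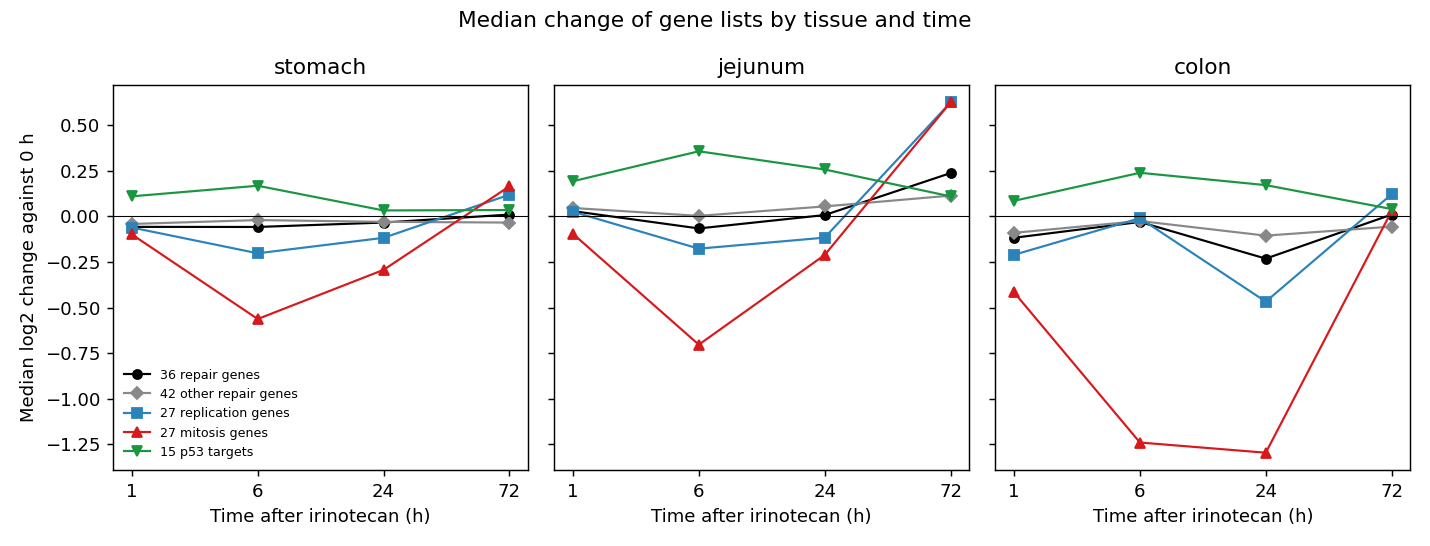
Median log2 change against 0 h of the 36 repair genes and of the other repair, mitosis, replication and p53 target lists, against hours after irinotecan (times evenly spaced on the axis), by tissue. The repair genes' median is 0.24 in the jejunum at 72 h and -0.23 in the colon at 24 h, and the mitosis median is 0.63 and -1.30 there.

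In undosed tissues the share of these genes that differed was close to or below that of all probe sets: 36.1% against 32.2% between jejunum and stomach, 30.6% against 45.7% between jejunum and colon and 22.2% against 33.1% between colon and stomach. The genes are therefore given as single values. Between jejunum and stomach at 0 h 7 of 36 genes were higher in the jejunum and 6 lower, against 14.9% and 17.3% of all probe sets. Nbn had the smallest p, with 8.02 and 7.65 in the jejunum, against 8.80 and 8.85 in the stomach (-0.99 ± 0.12, adjusted p = 1.78e-06). Exo1 read 6.74 and 6.68 in the jejunum, against 6.15 and 6.06 in the stomach (0.61 ± 0.11, adjusted p = 0.000242). Fancd2 read 7.50 and 7.59, against 6.82 and 6.86 (0.70 ± 0.14, adjusted p = 0.000616). Rad54l read 6.57 and 6.56, against 6.03 and 6.25 (0.42 ± 0.09, adjusted p = 0.000942), and Fanca 7.18 and 7.18, against 6.76 and 6.77 (0.41 ± 0.10, adjusted p = 0.00287). For all 5 the groups did not overlap. Topbp1, Brca1 and Brca2 were also higher in the jejunum, and Msh6, Fancl, Xrcc5, Xrcc6 and Rad50 lower.

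Between jejunum and colon at 0 h 1 of 36 was higher in the jejunum and 10 lower, against 25.8% and 19.9% of all probe sets. Nbn was again lower in the jejunum, with 8.02 and 7.65, against 8.85 and 8.75 in the colon (-0.97 ± 0.12, adjusted p = 3.51e-06), and the 2 comparisons share the jejunal arrays. Rad50 read 7.54 and 7.25 in the jejunum, against 7.89 and 7.91 in the colon (-0.51 ± 0.09, adjusted p = 0.000189). Mre11, the nuclease of the complex that Nbn and Rad50 belong to, did not pass. The other Rad50 probe sets gave -0.39 (1387427_at, adjusted p = 0.00332) and -0.0027 (1385565_at, adjusted p = 0.987). Fancl read 6.95 and 6.96, against 7.36 and 7.55 (-0.50 ± 0.13, adjusted p = 0.00391), and Rbbp8 7.86 and 7.96, against 8.43 and 8.40 (-0.51 ± 0.13, adjusted p = 0.00424). Msh6 was lower by 0.84, and Msh3, Tp53bp1, Xrcc5, Prkdc and Chek1 were lower too. By the brightest probe sets, Exo1 was the 1 gene higher in the jejunum (0.34 ± 0.11, adjusted p = 0.0177). Second probe sets were higher there for Topbp1 (0.89, adjusted p = 0.0276), Xrcc4 (0.41, adjusted p = 0.0138) and Tp53bp1 (0.29, adjusted p = 0.0343). The probe sets of Tp53bp1 thus passed in opposite directions. The second Lig4 probe set was lower (-0.39, adjusted p = 0.0160).

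Between colon and stomach at 0 h 8 of 36 genes were higher in the colon and 0 lower, against 15.1% and 18% of all probe sets. Fancd2 read 7.81 and 7.67 in the colon, against 6.82 and 6.86 in the stomach (0.90 ± 0.14, adjusted p = 7.14e-05). Topbp1 read 8.17 and 8.25, against 7.23 and 7.22 (0.99 ± 0.19, adjusted p = 0.000599). The arrays of the 2 tissues lay far apart for both genes. Rad54l read 6.58 and 6.57, against 6.03 and 6.25 (0.43 ± 0.09), Msh3 7.60 and 7.41, against 6.79 and 6.76 (0.73 ± 0.18), and Bard1 6.54 and 6.65, against 6.35 and 6.27 (0.28 ± 0.09). Chek1, Prkdc and Rad50 were higher as well. Of the second probe sets, that of Lig4 was higher in the colon (0.45, adjusted p = 0.00946) and that of Xrcc4 lower (-0.50, adjusted p = 0.00568). Mitosis genes moved the same way, 21 of 27 being higher in undosed colon than in undosed stomach and 13 of 27 higher in undosed jejunum than in undosed stomach.

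**Figure D5:**
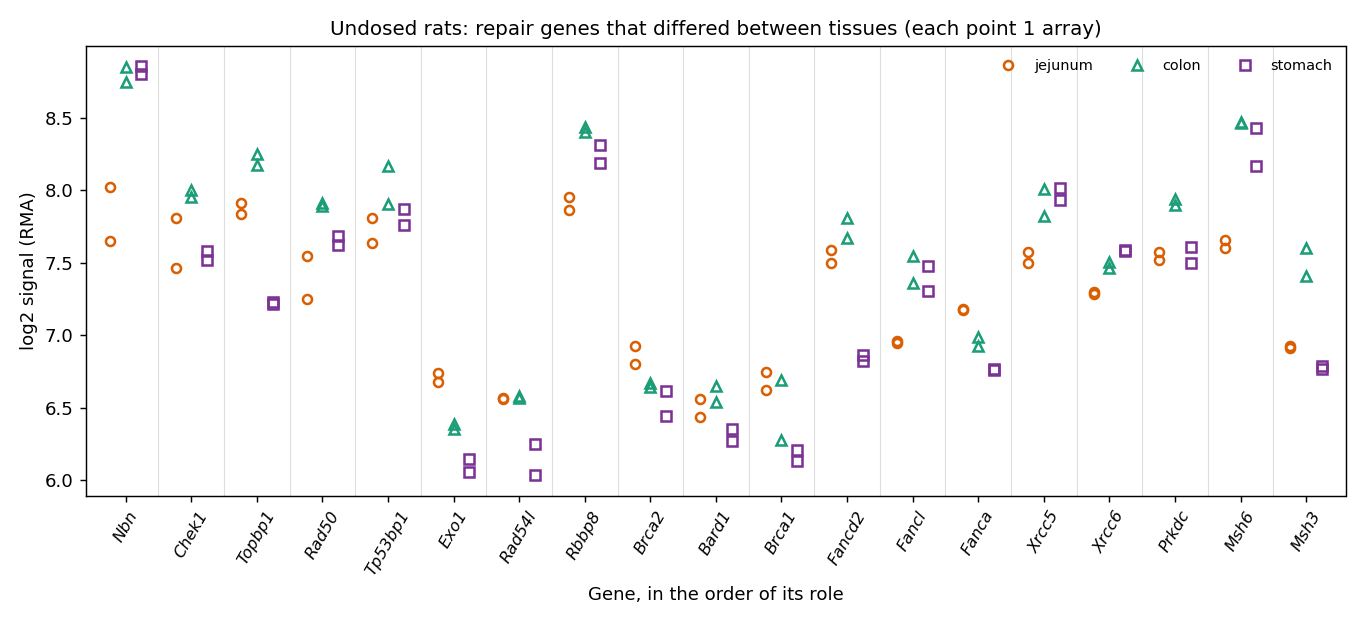
Log2 signal in undosed jejunum, colon and stomach (single arrays as points, 2 a tissue) for the 19 genes that passed in at least 1 comparison of undosed tissues. Nbn is 8.02 and 7.65 in the jejunum and 8.75 to 8.85 in the other tissues.

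Counts from undosed tissues also moved with single arrays. Leaving out 1 array at a time gave 6 to 8 calls between jejunum and stomach, where Nbn, Exo1, Fancd2, Rad54l and Fanca were called each time, 5 to 7 between jejunum and colon, where Nbn, Rad50, Msh6 and Rbbp8 were, and 4 to 5 between colon and stomach, where Fancd2, Topbp1 and Rad54l were. Between jejunum and stomach another probe set turned the sign for Rad50 (1385565_at, 0.07) and for Xrcc5 (0.08). The Rad50 probe set 1387427_at kept it (-0.20). The second probe sets also turned the sign for Xrcc5 (0.18) and Tp53bp1 (0.29) between jejunum and colon, and for Topbp1 (-0.03) between colon and stomach.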

How the data were processed

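The values are log2 signals as the authors deposited them, made with RMA from Affymetrix rat genome arrays per the submitters' processing notes. The sources used here name no RMA version. RMA pulls low signals together, so changes of dim genes can be understated. No scaling was added. Genes were named from GEO's platform annotation. The members and the lists were chosen with earlier results of these data known. After removal of 57 array controls from 31099 probe sets, 31042 were tested with limma 3.58.1 under R 4.3.3, with p adjusted by Benjamini-Hochberg over all of them and a threshold of 0.05. The 5 times of a tissue were fitted together. Undosed tissues and tissue differences came from 1 fit of all 30 arrays. All tests are two-sided, and each error is limma's standard error. Counts at an unadjusted p below 0.05 are given without the share of all probe sets at that p and are descriptive. Full array values are given for a gene among the 5 smallest adjusted p of a comparison, or passing in 2 tissues, and for further repair genes the 4 smallest. Msh3 and Xrcc4 in the colon were described by array after their values were seen. The cell cycle, p53 and cell type markers named were fixed as lists. Alternatives were no dim probe sets, quantile normalization, variances with a trend and robust fitting, all arrays in 1 model, the replicate number as a block, each array left out, the arrays that stood apart left out and other probe sets. The tests were checked on simulated data. There 1.5-fold changes at 72 h were found for 31.8% of changed probe sets in the stomach, 40.9% in the jejunum and 30.3% in the colon. For the tissue difference at 72 h it was 24.2%. At 2-fold these shares were 75.8%, 92.4%, 89.4% and 72.7%. In the simulation 66 of 31042 probe sets changed at each fold in each comparison, with independent noise. In the data 7405 were called at 72 h against 0 h in the jejunum and 2 in the stomach. The Benjamini-Hochberg cutoff depends on how many change, so these shares are not detection rates for the real comparisons.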

Additional observations from a re-analysis of the deposited data

Results flagged for a closer look

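For 2 genes the response to irinotecan at 72 h differed between the tissues by the interaction F test of limma over all 30 arrays. Both calls depended on single arrays, and in some of the fits with an array left out neither gene was called. Neither was called after quantile normalization. For Nbn the adjusted p was 0.0283, with 8.67 and 8.57 in the jejunum at 72 h, against 8.02 and 7.65 at 0 h, while the colon had 8.90 and 8.92, against 8.85 and 8.75, and the stomach 8.82 and 8.88, against 8.80 and 8.85. For Rad18 the adjusted p was 0.0457, and its 72 h arrays lay above the 0 h arrays in all 3 tissues. The changes were 1.34 in the jejunum, 0.49 in the stomach and 0.40 in the colon, and the latter 2 did not pass the test. Stomach 72 h array 1 and colon 72 h array 2 carried pancreatic markers.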

How the results depend on the processing

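Other settings moved these counts of repair genes. Dropping dim probe sets leaves 19 to 21 of the 36 genes, and fewer genes tested is part of that setting. Rad18, Exo1, Rad54l and Atr are dropped there, with mean signals at percentiles 41.5, 31.2, 30.2 and 21.7 of all probe sets. In the jejunum it gave 2 at 6 h, 7 at 72 h against 0 h and 7 at 72 h against 24 h. It also gave 4 for the colon at 72 h against 24 h, 1 for the tissue difference at 72 h and 5 for undosed colon against stomach. Quantile normalization gave 0 for the colon at 6 h and at 24 h, 0 for the tissue difference at 72 h and 7 for undosed jejunum against colon. Trended and robust variances gave 3 for the colon at 24 h. A single fit of all 30 arrays gave 0 for the jejunum at 6 h and, in the colon, 7 at 24 h and 1 at 72 h. Leaving out the 6 arrays that stood apart, chosen after seeing the data, gave 2 for the jejunum at 6 h, 0 for the colon at 6 h and at 24 h, 3 for the colon at 72 h against 24 h and 10 for the tissue difference at 72 h. The causes were not tested. With a replicate block the count was 0 for the colon at 6 h and 2 at 24 h, and it moved no other count by over 1.5 times. Replicate numbers were not taken as pairs, since not every pair of groups went together: over 30 pairs of groups of a tissue the correlation of deviations ran from -0.582 to 0.434, and over 15 pairs of tissues at a time from -0.215 to 0.503. At 24 h all 3 pairs of tissues did (0.503, 0.358 and 0.319), and a block of replicate number within each time, added after seeing the data, gave 0 calls for the tissue difference at 24 h.

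With 1 array left out the counts ran from 0 to 0 for the jejunum at 6 h, 0 to 2 at 24 h, 4 to 8 at 72 h and 2 to 16 at 72 h against 24 h. In the colon they ran from 0 to 2 at 6 h, 0 to 3 at 24 h and 2 to 8 at 72 h against 24 h. For tissue differences they were 0 to 1 at 24 h and 0 to 4 at 72 h, and for undosed tissues 6 to 8, 5 to 7 and 4 to 5. The number of all probe sets called moved in these fits too, and their share is not given beside the counts. Each fit leaves 1 array in a group. Of the single changes called, none turned its sign when an array was left out. Other probe sets turned it for Xrcc5 at 72 h in the jejunum (-0.0198) and Hus1 in the colon at 72 h against 24 h (0.0258). In undosed tissues they did so for Rad50 (1385565_at only, 0.0698), Xrcc5 (0.075 and 0.1753), Tp53bp1 (0.2932) and Topbp1 (-0.0348). With 2 pools a group small changes can be missed, and with compressed low signals those of dim genes in particular.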
